A study of Mus musculus with 12 samples.

Results

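Emx2, Tbx15, Alx1 and Alx4 are transcription factor genes known for their part in forming the scapula. They were taken as a set with every probe set annotated to them, which gave 6 probe sets of 45037 on the array and 4 genes of the 18193 tested: 1 probe set each for Emx2 and Alx4, and 2 each for Tbx15 and Alx1. They were measured in limbs of mouse embryos without Lmx1b (KO, Lmx1b -/-) and of wild-type embryos (WT, Lmx1b +/+), all of strain C57BL/6, at 11.5, 12.5 and 13.5 days post coitum (dpc). Stage and genotype together made 6 groups with 2 arrays in each, and the series text says that these duplicates came from different embryos, forelimbs and hindlimbs being pooled. At 11.5 and 12.5 dpc the girdle was dissected together with the limb bud, whereas at 13.5 dpc only the zeugopod and autopod were taken, so the tissue that forms the scapula was by label in the samples of 2 stages. Each stage also has its own scan series in the labels, so stage, scan series and, at 13.5 dpc, dissected part cannot be told apart, and genotypes were compared within a stage. Genes of forelimb and hindlimb identity differed strongly between 12.5 and 13.5 dpc. The mix of forelimb and hindlimb may therefore differ by stage as well, which was not tested.

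Lmx1b encodes a LIM-homeodomain factor of the dorsal limb mesenchyme, and limbs without it lack dorsal structures. The scapula forms from mesenchyme at the base of the forelimb bud and from somite-derived cells. In mice, Emx2, a homeobox gene related to the fly gene empty spiracles, is needed for the scapular blade and the ilium as well as for the forebrain and the urogenital system. Alx1, a paired-type homeobox gene active in cartilage precursors and in head mesenchyme, lies downstream of Emx2 in the mouse girdle. Tbx15, a T-box gene of limb and trunk mesenchyme, and Alx4, a paired-type homeobox gene of the anterior limb bud, act together with Gli3, a transcription factor of the hedgehog pathway, in forming the blade.

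Emx2 was lower in KO than in WT limbs at every stage, and it was the only one of the 4 genes whose genotype difference passed the test. Averaged over the 3 stages, Emx2 fell by 1.61 on the log2 scale, to 32.7% of the WT level. Alx1 read lower in both KO arrays at 11.5 and 12.5 dpc, as 26.8% and 19.3% of all genes did, and its difference did not pass. Tbx15 and Alx4 differed little between genotypes. Values are the deposited log2 expression values, whose median over all probe sets and arrays was 6.28, and differences are KO minus WT from a limma fit to all 12 arrays, with a standard error (SE) and a Benjamini-Hochberg adjusted p over all 18193 genes. In these bulk samples fewer cells of a type and less RNA per cell cannot be told apart.

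Emx2 (probe set 1456258_at) read 7.41 and 7.07 in the KO arrays at 11.5 dpc, against 8.39 and 8.86 in WT. At 12.5 dpc it read 5.83 and 6.13 in KO, against 8.14 and 8.40 in WT. At 13.5 dpc it read 7.31 and 8.09 in KO, against 8.92 and 8.80 in WT. Both KO arrays lay below both WT arrays at each stage, a pattern that 1.31% of all genes showed in that direction. At single stages it was common, with 26.8%, 19.3% and 22.3% of genes lower in both KO arrays at 11.5, 12.5 and 13.5 dpc. The 2 lowest arrays were those of KO at 12.5 dpc, the only 2 below the median of all values.

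Over the 3 stages the Emx2 difference was -1.61 ± 0.14 (SE, 6 KO and 6 WT arrays, 95% interval -1.93 to -1.30, adjusted p = 0.00149 by limma). With it 37 of 18193 genes passed, 0.203% of those tested, and Emx2 had the 3rd most negative difference of all. At 12.5 dpc the difference was -2.29 ± 0.25, which left 20.4% of the WT level, and it passed the test (adjusted p = 0.016 by limma), as 0.0385% of genes did. This call at 12.5 dpc ended in 7 of 21 alternative settings, among them a fit to only the 4 arrays of 12.5 dpc (adjusted p = 0.156 by limma). At 11.5 dpc the difference was -1.38 ± 0.25 (adjusted p = 0.624 by limma), where 0.0165% of genes passed and none of the 4 genes did. At 13.5 dpc it was -1.16 ± 0.25 (adjusted p = 0.254 by limma), where 0.0275% of genes passed and again none of the 4 did.

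The size of the Emx2 difference was also compared between stages. It was more negative at 12.5 than at 11.5 dpc by 0.91 ± 0.35 on the log2 scale (unadjusted p = 0.026, adjusted p = 0.754 by limma). The difference at 13.5 dpc minus that at 12.5 dpc was 1.13 ± 0.35 (unadjusted p = 0.00872, adjusted p = 0.478 by limma). Neither passed after adjustment, and 0% of genes passed in either comparison by limma, although 1132 and 1546 genes had an unadjusted p under 0.05.

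**Figure D1:**
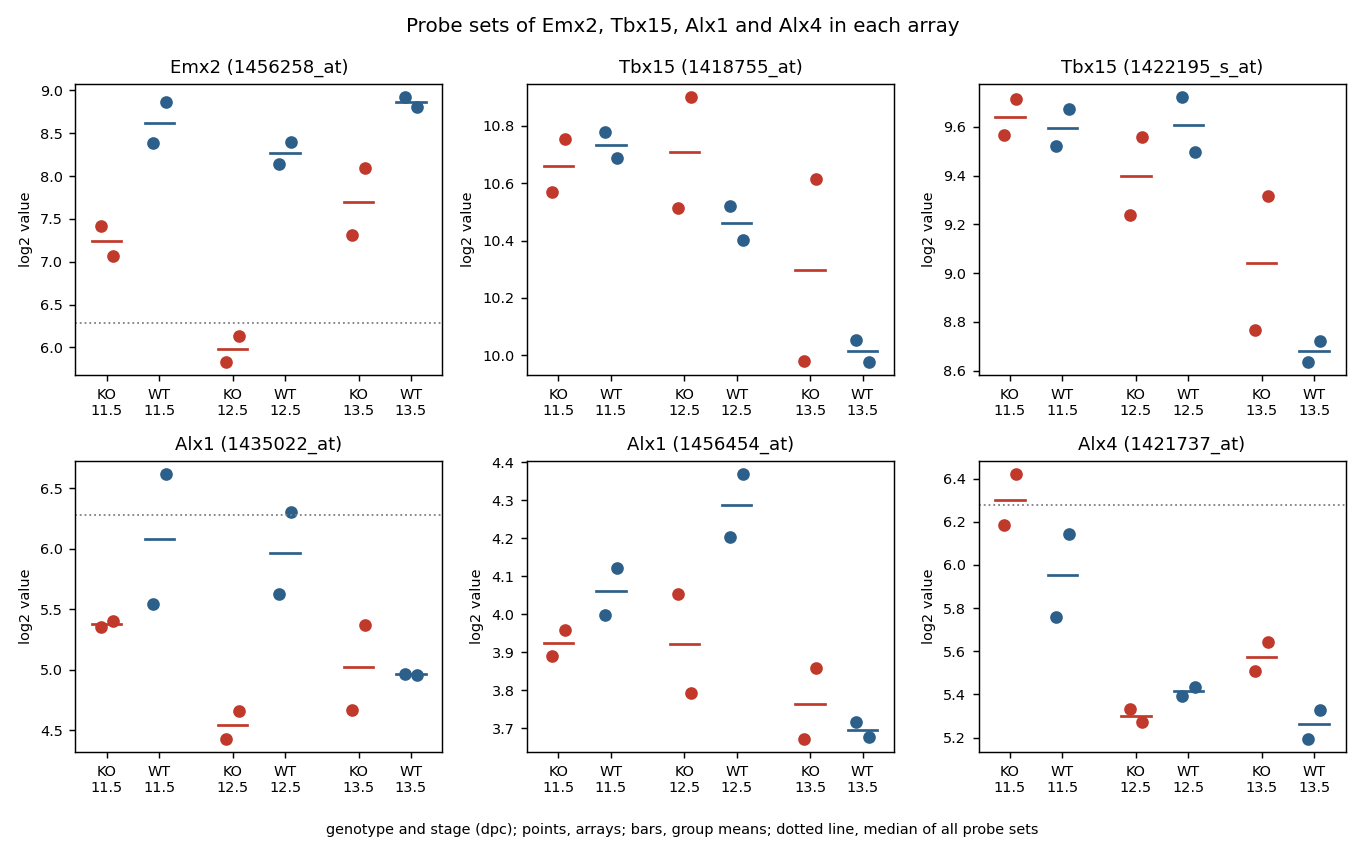
Log2 value of each of the 6 probe sets of Emx2, Tbx15, Alx1 and Alx4 (y axis) in the KO and WT arrays of each stage (x axis, dpc); points are arrays, bars are group means and the dotted line is the median of all values, 6.28. For Emx2 the KO points lie below the WT points at all 3 stages, as for 1.31% of all genes. For Tbx15 the points of both genotypes overlap at 11.5 and 12.5 dpc.

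Ordered by group mean, Emx2 ran from 8.86 in WT at 13.5 dpc through 8.63 in WT at 11.5 dpc and 8.27 in WT at 12.5 dpc. Below these came 7.70 in KO at 13.5 dpc, 7.24 in KO at 11.5 dpc and 5.98 in KO at 12.5 dpc. Neighbours in this order overlapped within the 3 WT groups and between KO at 13.5 and KO at 11.5 dpc. The arrays did not overlap between the lowest WT group and the highest KO group, nor between KO at 11.5 and KO at 12.5 dpc.

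Within WT limbs Emx2 changed by -0.35 ± 0.25 between 11.5 and 12.5 dpc (adjusted p = 0.343 by limma) and by 0.59 ± 0.25 between 12.5 and 13.5 dpc (adjusted p = 0.104 by limma). The WT stages differ in dissected part and in scan series, and the limb identity genes Pitx1 and Tbx5 also moved between 12.5 and 13.5 dpc, with Pitx1 at 10.2 and 10.1 in WT at 13.5 dpc, against 5.80 and 6.06 in WT at 12.5 dpc. With such Pitx1 values, a like mix of forelimb and hindlimb at both stages cannot be taken from the series text. The part of limb mix, dissection and scan series in the stage changes of the 4 genes was not tested. Within KO limbs Emx2 fell by 1.26 ± 0.25 between 11.5 and 12.5 dpc (adjusted p = 0.00886 by limma). It then rose by 1.72 ± 0.25 between 12.5 and 13.5 dpc (adjusted p = 0.00244 by limma), the 15th most positive change of all genes. Stage changes of this kind were common, with 16.8% of genes passing between the first pair of stages in KO limbs and 18.6% between the second. Without the first KO replicate at 11.5 dpc the fall in KO was 1.09 and no longer passed (-1.09 ± 0.30, adjusted p = 0.0705 by limma).

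Emx2 is also a gene of the urogenital ridge and the forebrain, so markers of those tissues were read in the same arrays. The mean of 6 measured markers of intermediate mesoderm and gonad lay between 5.38 and 5.83 in KO arrays and between 5.39 and 5.87 in WT arrays, below the median of all values. Of these 6, Wnt4, which is also a gene of limb joints, was the one above that median in each array, while the other 5, Wt1 and Lhx1 among them, were below it in all 12 arrays. The mean of 7 brain and spinal cord markers lay between 4.66 and 4.87 in KO arrays and between 4.59 and 5.02 in WT arrays, with 1 or 2 of the 7 above the median.

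The mean of 12 cartilage markers was also lower in KO limbs. All 12 had a negative KO minus WT difference over the 3 stages, as did 58.6% of all genes. The median difference was -0.45 against -0.02 over all genes, and 0 of the 12 passed the test by limma. Their mean was between 8.48 and 8.74 in KO against 8.87 and 9.14 in WT at 11.5 dpc, at most 9.81 in KO against at least 9.91 in WT at 12.5 dpc, and between 9.34 and 9.82 in KO against 10.3 in both WT arrays at 13.5 dpc. The groups did not overlap at any stage, an order that 1.31% of single genes showed in that direction. The share among means of 12 genes was not computed and can differ from that of single genes. The part of cartilage cells in the Emx2 difference was not tested.

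Emx2os, a noncoding transcript of the opposite strand, starts just upstream of Emx2. Its probe set 1456559_at read 5.37 and 5.01 in KO against 5.94 and 5.81 in WT at 11.5 dpc. At 12.5 dpc it read 5.20 and 4.80 in KO against 5.15 and 5.62 in WT, and at 13.5 dpc 5.39 and 5.28 in KO against 6.03 and 6.15 in WT. KO lay below WT without overlap at 11.5 and 13.5 dpc, as for 26.8% and 22.3% of all genes. The genotypes overlapped at 12.5 dpc, the stage at which Emx2 differed most. The difference over the 3 stages was -0.61 ± 0.11 and did not pass (adjusted p = 0.0672 by limma). The probe set was below the median of all values in all 12 arrays, close to background.

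The start of Emx2 is shown because both transcripts arise around it and because it can be searched for the core that homeodomain proteins bind. The window of RefSeq build GRCm38.p6 at chr19:59458440-59458739, on the + strand, holds 250 bases before the start of Emx2 and 50 after it, and 196 of its bases lie within the annotated Emx2os gene. TAATTA, a core recognised by many homeodomain factors including those of the LIM class, is in capitals.
Emx2 window: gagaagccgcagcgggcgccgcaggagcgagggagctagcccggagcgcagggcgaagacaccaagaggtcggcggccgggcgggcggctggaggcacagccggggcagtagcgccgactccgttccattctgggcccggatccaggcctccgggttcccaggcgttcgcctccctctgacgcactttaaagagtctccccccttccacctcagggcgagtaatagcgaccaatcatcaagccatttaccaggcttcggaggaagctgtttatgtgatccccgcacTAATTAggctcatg
TAATTA occurs once, beginning at base 37 of the transcript, and the window has a GC content of 64.3%. Of 32851 windows of the same length in the table, 5.29% hold TAATTA, which reads the same on both strands. The palindrome that paired-type homeodomain proteins such as Alx4 bind as dimers, TAAT and ATTA with any 3 bases between them, was not found in the window and is in 0.487% of all windows. A match of letters does not show a bound site. Of the 4 genes, 1 was in the promoter table, and Tbx15, Alx1 and Alx4 were not.

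Alx1 read lower in KO limbs at the stages dissected with the girdle. Its brighter probe set 1435022_at read 5.35 and 5.40 in KO against 5.54 and 6.62 in WT at 11.5 dpc, and 4.43 and 4.65 in KO against 5.63 and 6.30 in WT at 12.5 dpc. At 13.5 dpc it read 4.67 and 5.37 in KO against 4.97 and 4.96 in WT. Both KO arrays were below both WT arrays at 11.5 and 12.5 dpc, as for 26.8% and 19.3% of all genes. At 13.5 dpc the KO arrays lay on either side of the WT arrays. Only 2 of the 12 Alx1 values, both in WT, were above the median of all values, so this gene was read close to background.

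The Alx1 difference was -1.42 ± 0.33 at 12.5 dpc (unadjusted p = 0.00156, adjusted p = 0.182 by limma), the 11th most negative of all genes at that stage. At 11.5 dpc it was -0.70 ± 0.33 (adjusted p = 1.00 by limma) and at 13.5 dpc 0.05 ± 0.33 (adjusted p = 0.999 by limma). With single arrays left out it ranged from -1.24 to -0.16 at 11.5 dpc, the smallest without the second WT replicate, from -1.76 to -1.09 at 12.5 dpc and from -0.29 to 0.40 at 13.5 dpc. Over the 3 stages it was -0.69 ± 0.19 (95% interval -1.12 to -0.26, adjusted p = 0.430 by limma). The difference at 13.5 dpc minus that at 12.5 dpc was 1.48 ± 0.47 and did not pass (adjusted p = 0.501 by limma).

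The dimmer Alx1 probe set 1456454_at lay between 3.67 and 4.05 in KO arrays and between 3.68 and 4.37 in WT arrays, below the median of all values throughout. Like the other it had both KO arrays below both WT arrays at 11.5 and 12.5 dpc, as 26.8% and 19.3% of all genes did. Its differences were -0.14 ± 0.12 and -0.36 ± 0.12 at these stages and 0.07 ± 0.12 at 13.5 dpc. None of these passed, the smallest adjusted p being 0.229 by limma at 12.5 dpc. Among all 45037 probe sets 0.00888%, 0.335% and 0.0178% passed at 11.5, 12.5 and 13.5 dpc.

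Within WT limbs the brighter Alx1 probe set was at 49.9% of its 12.5 dpc level at 13.5 dpc, short of the threshold (adjusted p = 0.0509 by limma). The dimmer one fell by 0.59 ± 0.12 (adjusted p = 0.0087 by limma over all probe sets, of which 19% passed in this comparison). Within KO limbs the brighter probe set changed by 0.48 ± 0.33 between these stages (adjusted p = 0.341 by limma). In WT the change thus passed for 1 of the 2 Alx1 probe sets.

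**Figure D2:**
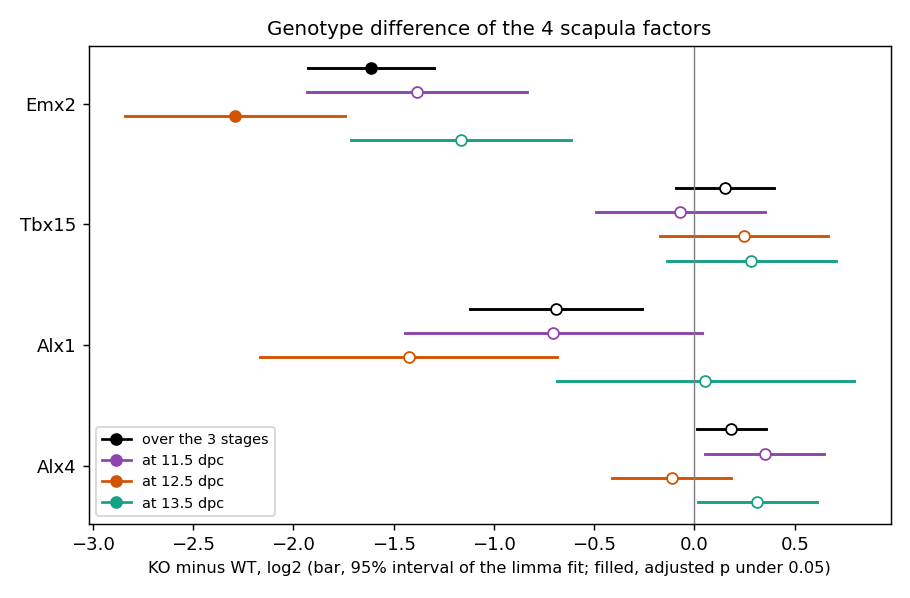
KO minus WT difference in log2 (x axis) of Emx2, Tbx15, Alx1 and Alx4 over the 3 stages and at each stage; bars are 95% intervals of the limma fit and filled points have an adjusted p under 0.05. The 2 filled points belong to Emx2, at -1.61 over the stages and -2.29 at 12.5 dpc, and the Alx1 value at 12.5 dpc is -1.42.

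Alx4 (probe set 1421737_at) read 6.18 and 6.42 in KO against 5.76 and 6.14 in WT at 11.5 dpc. At 12.5 dpc it read 5.33 and 5.27 in KO against 5.39 and 5.44 in WT, and at 13.5 dpc 5.51 and 5.64 in KO against 5.19 and 5.33 in WT. Both KO arrays were thus above WT at 11.5 and 13.5 dpc and below WT at 12.5 dpc, with 1 value of 12 above the median of all values. Of all genes, 12.8% and 11.6% were higher in both KO arrays at 11.5 and 13.5 dpc, and 19.3% were lower in both at 12.5 dpc. The differences were 0.35 ± 0.13, -0.11 ± 0.13 and 0.31 ± 0.13 in the order of stages, none of which passed (smallest adjusted p = 0.824 by limma). Over the 3 stages the difference was 0.18 ± 0.08 (95% interval 0.01 to 0.36, adjusted p = 0.698 by limma).

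Alx4 fell between 11.5 and 12.5 dpc in both genotypes. In KO it came to 49.9% of its 11.5 dpc level (adjusted p = 0.00204 by limma) and in WT to 68.9% (adjusted p = 0.0201 by limma), where 19.8% of genes passed. The SE of both changes was 0.13 log2 units. The fall was larger in KO by 0.46 ± 0.19 on the log2 scale, a difference that did not pass (adjusted p = 0.781 by limma). The WT fall did not pass without the second WT replicate at 11.5 dpc (-0.35 ± 0.14, adjusted p = 0.174 by limma) or without either WT replicate at 12.5 dpc (adjusted p = 0.0822 and 0.0627 by limma). Between 12.5 and 13.5 dpc Alx4 changed by 0.27 ± 0.13 in KO and by -0.15 ± 0.13 in WT, and neither passed.

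Tbx15 gave high values in every array and differed little by genotype. Its brighter probe set 1418755_at read 10.57 and 10.75 in KO against 10.78 and 10.69 in WT at 11.5 dpc. At 12.5 dpc it read 10.51 and 10.90 in KO against 10.52 and 10.40 in WT, and at 13.5 dpc 9.98 and 10.61 in KO against 10.05 and 9.98 in WT. The genotypes overlapped at each stage for this probe set. The difference over the 3 stages was 0.15 ± 0.11, with a 95% interval of -0.09 to 0.40 (adjusted p = 0.868 by limma). The other probe set, 1422195_s_at, lay between 8.77 and 9.71 in KO arrays and between 8.64 and 9.72 in WT arrays, and its difference over the 3 stages was 0.07 ± 0.10 (adjusted p = 0.957 by limma), where 0.0711% of probe sets passed. At 13.5 dpc it read 8.77 and 9.32 in KO against 8.64 and 8.72 in WT, the 9.32 being the second KO replicate. Both KO arrays were above both WT arrays, as for 11.6% of all genes. The difference of 0.36 ± 0.18 did not pass (adjusted p = 1.00 by limma).

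By order of group means the brighter Tbx15 probe set was highest in WT at 11.5 dpc, at 10.73, and lowest in WT at 13.5 dpc, at 10.01. Within WT limbs the 2 probe sets changed by -0.44 ± 0.19 (adjusted p = 0.111 by limma) and -0.93 ± 0.18 (adjusted p = 0.00664 by limma over all probe sets) between 12.5 and 13.5 dpc. Both changes were negative, and 1 of the 2 passed. With the probe sets averaged the WT change was -0.69 and passed (adjusted p = 0.0205 by limma), where 25.3% of genes passed with 1 probe set each.

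One KO array bears on the Tbx15, Alx1 and Emx2 values at 13.5 dpc. The second KO replicate there had the higher value of all 4 genes in its group, and the mean of 9 proximal limb markers was 9.70 in it against 8.86 in the other KO array and 8.54 and 8.61 in WT. Without it the Tbx15 difference at 13.5 dpc was -0.03 ± 0.16 in place of 0.28 ± 0.19, and the Emx2 difference was -1.55 ± 0.23 in place of -1.16 ± 0.25. With the first KO replicate left out instead, the Tbx15 difference was 0.60 and the Emx2 difference -0.77. The second KO replicate at 12.5 dpc also stood apart, with Hspa1a, a heat shock gene, at 9.36 against 4.80 to 5.71 in the other 11 arrays. Without both of these arrays Emx2 over the 3 stages was -1.79 ± 0.12 (adjusted p = 0.00128 by limma), and Tbx15 was -0.02 ± 0.06. The replicates of KO at 12.5 and 13.5 dpc differed by a root mean square of 0.356 and 0.267 log2 units over all genes, against 0.14 to 0.237 in the other 4 groups. The targeted gene, Lmx1b (1441729_at), read 5.60 and 5.72, 6.50 and 7.02, and 7.48 and 8.88 in KO at the 3 stages in turn, against 9.28 to 10.3 in WT, a difference of -2.84 ± 0.20. KO lay below WT at each stage, as for 1.31% of all genes. The KO value rose, however, by 1.42 ± 0.35 between 12.5 and 13.5 dpc (adjusted p = 0.0223 by limma) and was highest in the array with the high proximal markers. The other Lmx1b probe set, 1421769_at, was below the median of all values in all 12 arrays and had a difference of -0.16 ± 0.09 that did not pass (adjusted p = 0.783 by limma).

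The 4 genes were then set among a list of 21 genes of the scapula and limb girdle, of which 19 were measured. Over the 3 stages 6 of the 19 had a negative and 13 a positive difference, while 58.6% of all genes had a negative one. The median was 0.03 against -0.02 over all genes. Emx2 was the 1 that passed as lower, and Pax9 was the 1 that passed as higher, against 0.187% and 0.0165% of all genes. At 12.5 dpc the same genes, Emx2 and Pax9, passed, when 0.0275% of all genes fell and 0.011% rose, and at 11.5 and 13.5 dpc 0 of the 19 did by limma. Emx2 had the most negative difference of the list over the 3 stages and Alx1 the next, at -0.69.

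Pax9, a paired-box gene of the sclerotome and anterior limb, rose by 0.59 ± 0.09 over the 3 stages (adjusted p = 0.0307 by limma), a call kept in 4 of 20 alternative settings. Pax1, a paired-box gene needed for the acromion of the mouse scapula, had a difference of -0.65 ± 0.22 (adjusted p = 0.556 by limma). At 11.5 dpc Pax1 read 7.11 and 7.22 in KO against 8.90 and 9.05 in WT, a difference of -1.81 ± 0.38 that did not pass (adjusted p = 1.00 by limma). Gli3 had a difference of -0.16 ± 0.10, and the TALE cofactors Pbx2 and Pbx3 had 0.02 ± 0.05 and 0.01 ± 0.09. Meis1, a TALE gene of the proximal limb, had 0.66 ± 0.23, with 1.55 ± 0.40 at 13.5 dpc, where the array with high proximal markers held 9.46 against 7.76 in the other KO array. Meis1 is itself among those markers, so its high value there is not a separate reading.

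**Figure D3:**
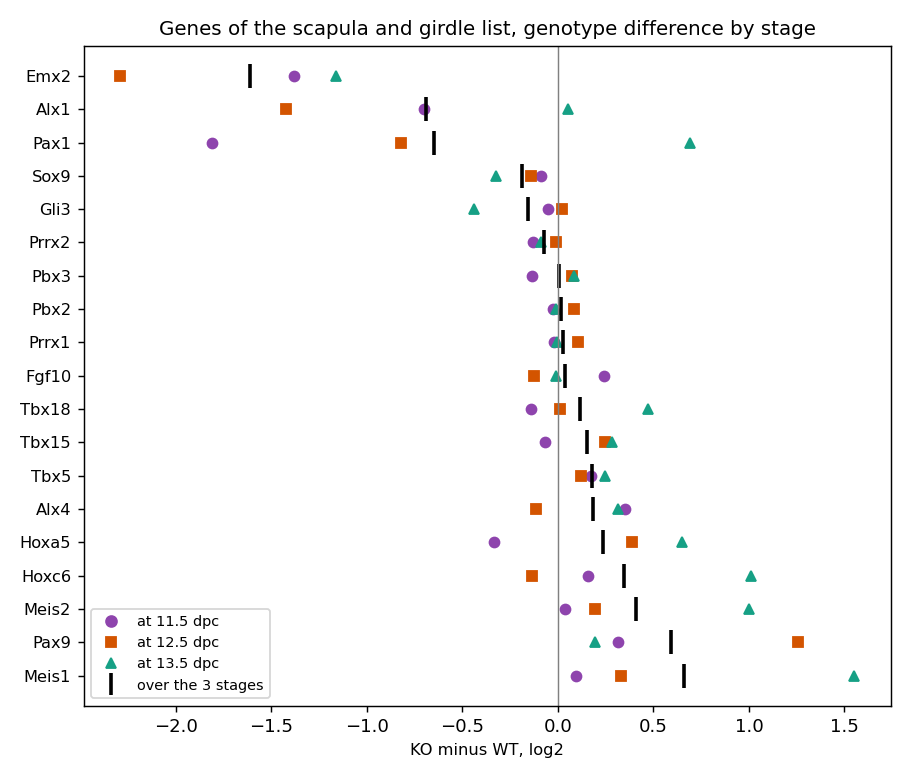
KO minus WT difference in log2 (x axis) of the 19 measured genes of the scapula and girdle list (y axis, ordered by the difference over the 3 stages); circles, squares and triangles are the 3 stages and vertical bars the mean over them. Emx2 has the most negative bar, at -1.61, and 13 of the 19 bars lie above 0, while 58.6% of all genes have a negative difference.

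Of the paralogues of the 4 genes, 5 of 6 were measured and 0 passed the test by limma over the 3 stages. Emx1, the paralogue of Emx2, had a difference of 0.07 ± 0.10. Tbx18 and Tbx22, which belong with Tbx15 to 1 branch of the T-box family, had 0.11 ± 0.08 and 0.68 ± 0.24 (adjusted p = 0.867 and 0.576 by limma). Prrx1 and Prrx2, related to the Alx genes, had 0.03 ± 0.05 and -0.08 ± 0.07.

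More genes of the girdle list passed the test between stages than between genotypes. Within KO limbs 7 of 19 fell and 3 rose between 11.5 and 12.5 dpc, and Emx2 and Alx4 were among the 7, when 10.6% of all genes fell and 6.22% rose. Within WT limbs 5 fell and 1 rose over the same interval, Alx4 having the smallest of the 5 falls beside Pax1 at -2.67, Meis1 at -1.96, Meis2 at -1.78 and Hoxc6 at -1.31. Of all genes 13.1% fell and 6.67% rose in WT. Between 12.5 and 13.5 dpc 2 fell and 2 rose in KO, with Emx2 at 1.72 and Pax1 at 1.62 as the pair that rose. The 2 KO arrays of Pax1 at 13.5 dpc lay far apart, with a mean of 7.10 and a standard deviation of 1.10. In WT 2 fell and 1 rose, none of them among the 4 genes. Of all genes 8.22% fell and 10.4% rose in KO, and 10.8% fell and 14.5% rose in WT. Tbx5, the forelimb identity gene, fell by 1.36 in KO and by 1.49 in WT at that step. Pitx1, its hindlimb counterpart, read 5.76 to 6.26 in KO arrays and 5.80 to 6.28 in WT arrays at 11.5 and 12.5 dpc, against 9.88 and 10.3 in KO and 10.2 and 10.1 in WT at 13.5 dpc.

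The genes next to the 4 on their chromosomes were read in the RefSeq gene order, 2 measured genes on each side. Of these 16 neighbours 2 passed over the 3 stages, both lower in KO, against 0.187% of all genes. Rab11fip2, which encodes an adaptor of Rab11 vesicles, is the second measured gene after Emx2. It read 8.13 and 8.15 in KO against 8.52 and 8.55 in WT at 11.5 dpc, 8.88 and 8.83 in KO against 9.26 and 9.15 in WT at 12.5 dpc, and 8.58 and 8.69 in KO against 9.13 and 9.04 in WT at 13.5 dpc. The genotypes did not overlap at any stage, as for 1.31% of all genes in that direction, and the difference was -0.40 ± 0.05 (adjusted p = 0.0174 by limma), with -0.34 and -0.08 for its other probe sets. The call was kept in 11 of 20 alternative settings.

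Tmtc2, which encodes a protein mannosyltransferase, is the second measured gene after Alx1 in that order. It read 8.98 and 8.93 in KO against 9.21 and 9.35 in WT at 11.5 dpc, 9.42 and 9.21 in KO against 9.79 and 9.80 in WT at 12.5 dpc, and 9.58 and 9.41 in KO against 10.27 in both WT arrays at 13.5 dpc. KO was below WT throughout, as for 1.31% of all genes, also at 13.5 dpc, where the Alx1 arrays of the genotypes overlapped. The difference was -0.53 ± 0.06 (adjusted p = 0.00998 by limma), with -0.18 for its other probe set, and the call was kept in 15 of 20 settings. Slc6a15, an amino acid transporter gene between Alx1 and Tmtc2, had -0.41 ± 0.08 (adjusted p = 0.109 by limma). Pdzd8, on the far side of Emx2os, had -0.04 ± 0.07, and the 8 neighbours of Tbx15 and Alx4 lay between -0.08 and 0.09.

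**Figure D4:**
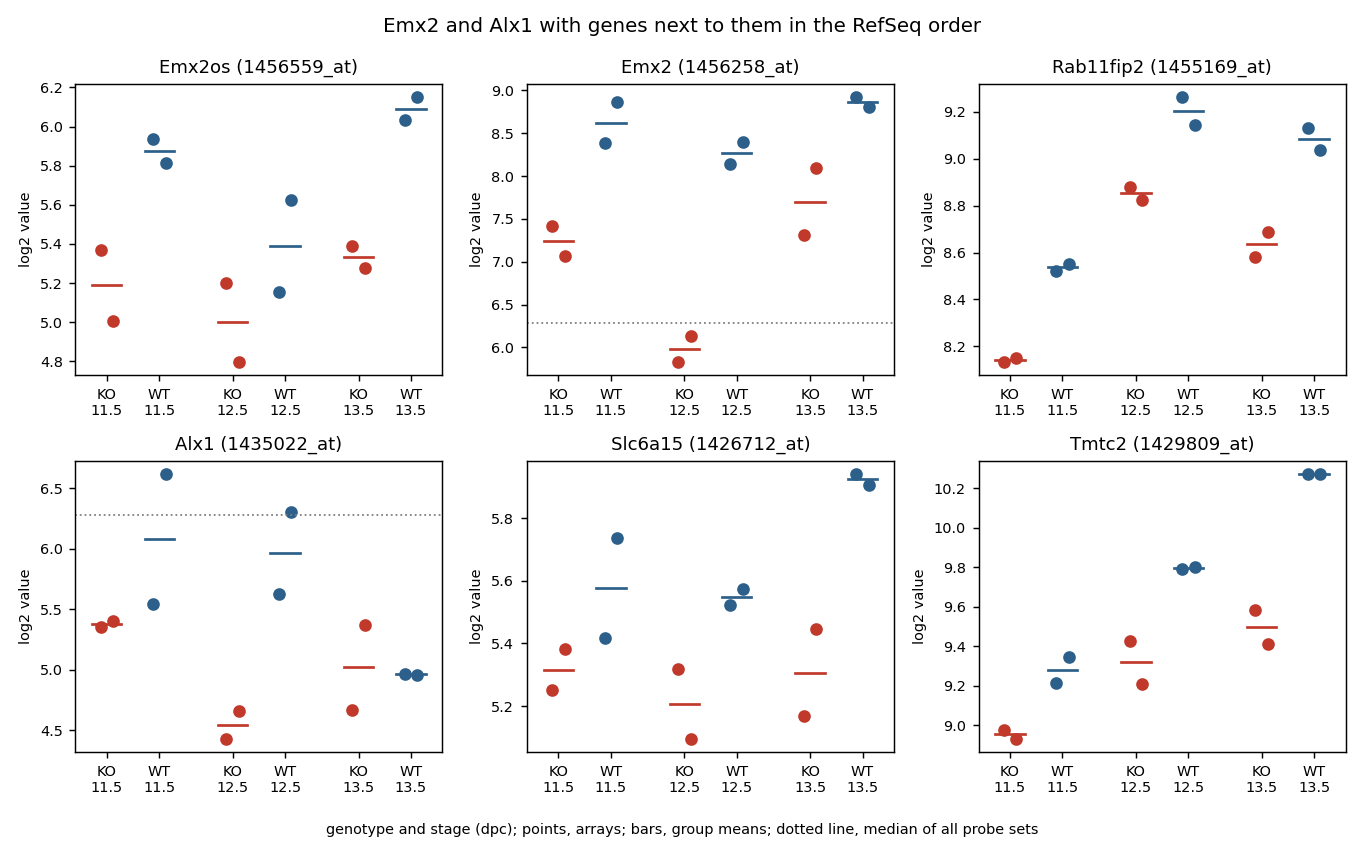
Log2 value (y axis) of Emx2 and Alx1 with genes next to them in the RefSeq order, in the KO and WT arrays of each stage (x axis, dpc); points are arrays, bars are group means and the dotted line is the median of all values. KO points lie below WT points at all 3 stages for Emx2, Rab11fip2, Slc6a15 and Tmtc2, but at 2 stages for Emx2os and Alx1. Of all genes 1.31% had KO below WT at all 3 stages.

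The genes most like each of the 4 in pattern were found by the root mean square difference over the 12 arrays, after each gene was centred on its own mean, among genes with a group mean above the median of all values. The 5 nearest to Emx2 were E330013P04Rik at 0.47 log2 units, Cbln2 at 0.49, Negr1 at 0.59, Tmeff2 at 0.61 and Nrp2 at 0.65, whereas Emx2 itself varied by 1.00 around its mean. Centred within each stage, the nearest were Apod at 0.28, Cbln2 at 0.39 and Lum at 0.40. Nrp2 was also the nearest to Alx1 within stages, at 0.32, followed by Dll3 and Cdh10 at 0.35 each. Over the 12 arrays Tubb3 was nearest to Alx1, at 0.38, ahead of Ccbe1, Gdpgp1, Grem1 and Dapk2 at 0.40 to 0.43, where Alx1 varied by 0.63.

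For Alx4 the nearest over the 12 arrays were Dusp4 at 0.14, Ak5 at 0.16 and Prtg, Cmss1 and Fam72a at 0.17 each, against a variation of 0.39 of Alx4 itself. Within stages they were Lin9, Rnf4 and Ergic2 at 0.08 to 0.09, against 0.17 for Alx4 itself. Tbx15 ranged over 0.92 log2 units, less than the 1 unit set for this search, and was left out of it. All these likenesses share the same 12 arrays and describe them only.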

How the data were processed

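Total RNA of pooled limbs was read on 12 Affymetrix mouse genome arrays, 1 colour. The values are log2 expression values of 45101 probe sets that the authors deposited. Per the submitters' processing notes they come from RMA, whose version the sources used here do not give. According to the series text a pool held 6 limbs, or 3 at 12.5 dpc, while the extraction protocol gives 6 throughout. The number of arrays limits the precision.

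The 64 control probe sets were left out. Names came from the platform annotation (34945 probe sets with 1 gene, 932 with several, 9160 without a name in the table used). Each gene was represented by its probe set of highest mean over the 12 arrays, giving 18193 genes. Gene order and the promoter came from RefSeq tables of GRCm38.p6. The sources used here do not give the build of the array values.

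Group means were fitted with limma 3.58.1 in R 4.3.3 (lmFit, eBayes; 6 residual and 4.22 prior degrees of freedom), two-sided, with Benjamini-Hochberg adjustment over all genes and a threshold of 0.05; single probe sets were adjusted over 45037. Tested on simulated data with 18193 genes, log2 changes of -2 were recovered at 100% in each of the 4 KO minus WT comparisons. Changes of -1 were recovered at 94% over the 3 stages but at 76%, 82% and 74% at 11.5, 12.5 and 13.5 dpc. The simulation changed 200 genes at all 3 stages and gave each gene the same spread in every group. In the data 3, 7 and 5 genes passed at the 3 stages and the spread differed between groups, so recovery there can be lower.

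Alternatives were trend with robust variances, array weights, a replicate block, renewed quantile normalization, the mean of probe sets, all probe sets, dim genes left out, the stage alone and leaving out arrays. The genes and lists were chosen with earlier results of these data known. Genes named are the 4 with every probe set, the girdle and paralogue lists, Lmx1b, the nearest in pattern, chromosomal neighbours and up to 3 markers per list.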

Additional observations from a re-analysis of the deposited data

Results flagged for a closer look

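Both KO arrays of Alx4 lay above both WT arrays at 11.5 and 13.5 dpc and below them at 12.5 dpc. The difference, KO minus WT, was 0.35 on the log2 scale at 11.5 dpc, -0.11 at 12.5 dpc and 0.31 at 13.5 dpc, none of which passed (adjusted p = 1.00, 0.824 and 0.829 by limma). The change of the difference between stages was tested: it was -0.46 ± 0.19 between 11.5 and 12.5 dpc (adjusted p = 0.781 by limma) and 0.43 ± 0.19 between 12.5 and 13.5 dpc (adjusted p = 0.580 by limma). Neither passed. At 11.5 dpc 12.8% of all genes had both KO arrays above both WT arrays, at 12.5 dpc 19.3% had both below, and at 13.5 dpc 11.6% had both above.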

How the results depend on the processing

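The 4 genes gave 44 results, which were compared with their alternatives 853 times: 819 kept their side of the threshold, 11 lost a call and 23 gained one. The sign changed 25 times, each time in a result that had not passed, and 0 called values turned round. The Emx2 difference over the 3 stages kept its call in 20 of 20 alternatives, between -1.79 and -1.48, with adjusted p from 0.00108 to 0.033 by limma, the highest with a replicate block. The Emx2 call at 12.5 dpc ended with array weights (-2.29, adjusted p = 0.0849), with a replicate block (-2.29, adjusted p = 0.168), with only the 4 arrays of 12.5 dpc fitted (-2.29, adjusted p = 0.156), without WT replicate 1 or 2 of that stage (-2.42 and -2.16, adjusted p = 0.0622 and 0.101) and without either WT array of 13.5 dpc (-2.29, adjusted p = 0.054). Over all single arrays left out it ranged from -2.44 to -2.14. Some of these fits had fewer arrays and others had all 12, and the cause of the lost calls was not tested. At 11.5 dpc the Emx2 difference passed with array weights (-1.38, adjusted p = 0.0119) and ranged from -1.62 to -1.15 with single arrays left out. At 13.5 dpc it ranged from -1.55 to -0.77. The replicate block changed no other genotype call of the 4 genes. The replicate numbers were not taken as pairs, since same-numbered KO and WT deviations correlated at 0.187, -0.12 and -0.0869 at 11.5, 12.5 and 13.5 dpc. The change of Alx1 between 12.5 and 13.5 dpc in WT passed in 11 alternatives, such as the block (adjusted p = 0.0425).

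Alx1 had no value with dim genes left out, since no group mean of it reached the median of all values. The number of genes passing moved by more than 1.5 times in many settings. Over the 3 stages it was 37, against 6 with the block, 24 with the mean of probe sets and 6 to 434 with 1 array left out, the highest without KO replicate 1 of 12.5 dpc. At 11.5 dpc it was 3, against 14 with array weights, 0 with the block, 7 without both KO arrays that stood apart and 0 to 5 with 1 array left out. At 12.5 dpc it was 7, against 2 with array weights, 1 with the block, 4 with renewed quantiles or the mean of probe sets, 151 among all probe sets, 94 without both KO arrays that stood apart, 1 with the stage alone and 1 to 515 with 1 array left out, the highest without KO replicate 1 of that stage. At 13.5 dpc it was 5, against 14 with trend and robust variances, 0 with the block, 8 among all probe sets, 11 without both KO arrays or with the stage alone and 0 to 56 with 1 array left out, the highest without KO replicate 1 of that stage. The block with crossed numbers at 12.5 dpc, added after the data were seen, gave 31 for the mean of the stages, 4 at 12.5 dpc and 0 at both other stages.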
